A study of Mus musculus with 6 samples.

Results

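Sectm1b, Sectm1a and Cd7 are 3 neighbouring genes of mouse chromosome 11, described here as a pair of ligand paralogs and the gene of a receptor, out of 20263 genes with a named probe set. Sectm1b was chosen because it was one of the 4 genes that passed the threshold in the comparison of Gli1-/- with wild-type prostates, although it missed that threshold in 7 of 14 alternative settings. Its values in that comparison are therefore given as a description, with no test. Sectm1a came in as its paralog and Cd7 as a receptor gene of the family. Each member was read by 1 probe set, and 0 of these probe sets shared their values with another.

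Expression was measured on arrays in 6 prostates, 3 from Gli1-/- mice, labelled as loss-of-function mutants, and 3 from wild-type mice. All mice, mutant and wild-type, were castrated at 8 weeks, given a testosterone pellet under the skin 2 weeks later, and sampled at 10 weeks of age, after 3 days of testosterone. Castration makes the gland regress and testosterone makes it regrow, so the glands were regenerating. A sample held the ventral with the dorsolateral lobes of 1 mouse, and the comparison asks which transcripts differ without Gli1, a transcription factor of Hedgehog signalling. Strain and the deleted part of Gli1 are not stated in the labels used.

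SECTM1 proteins are small immunoglobulin-like proteins that sit in the membrane of the producing cell or are secreted, and in human cells the gene is induced by interferon-gamma. Their receptor CD7 is an immunoglobulin-family surface protein of T cells and natural killer (NK) cells, on which ligand binding has a costimulatory effect. In the mouse the single human gene has the counterparts Sectm1a and Sectm1b, and Sectm1a has been described as a ligand of both Cd7 and Gitr, the receptor encoded by Tnfrsf18.

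The 3 genes lie in a row. In the mouse assembly GRCm38.p6 Cd7 spans chr11:121036747-121039478, Sectm1b spans chr11:121053423-121063585 and Sectm1a spans chr11:121067395-121097153. A gap of 13.9 kb separates Cd7 from Sectm1b and one of 3.81 kb separates Sectm1b from Sectm1a, so all 3 fit in 60.4 kb. The RefSeq promoter table used here (build GRCm38.p6) held an entry for 1 of the 3, Sectm1b. The 234 bases ahead of its outermost annotated start are shown, since no other member had an entry. They occupy chr11:121063586-121063819 on the minus strand.
Sectm1b promoter: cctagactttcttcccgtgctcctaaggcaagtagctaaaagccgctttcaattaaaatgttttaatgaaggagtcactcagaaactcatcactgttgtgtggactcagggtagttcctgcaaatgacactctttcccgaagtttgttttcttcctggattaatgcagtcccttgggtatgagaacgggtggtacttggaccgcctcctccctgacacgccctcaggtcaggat
The entry's full 300 bases were searched on both strands for 4 motifs. These were the GLI motif GACCACCCA, the interferon-gamma element TTCNNNGAA (GAS), the interferon-stimulated element GAAANNGAA (ISRE) and the androgen receptor half-site AGAACA, and 0 matches were found for each. No match says only that these letters are not in this window, and the printed run therefore carries no capitals. Over the 32851 promoters of the table the GLI motif was present in 0.253%, the GAS motif in 8.3%, the ISRE in 8.56% and the androgen half-site in 19%.

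Values are the deposited log2 intensities, on which a difference of 1 corresponds to a factor of 2. Sample medians lay between 6.76 and 6.95. Gli1 itself read 6.34, 6.27 and 6.29 in Gli1-/- mice 1 to 3 and 6.28, 6.48 and 6.51 in wild-type mice 1 to 3, so the groups overlapped and this probe set gives no check of the genotype labels. The labelled tissue was visible in its luminal genes: the androgen-dependent secretory gene Pbsn read 12.0, 12.6 and 12.3 in Gli1-/- mice and 12.8, 13.3 and 13.4 in wild-type mice, and the keratin gene Krt8 read between 12.3 and 12.7 in all 6. No detection call accompanies the values, so whether a dim gene lay above background is unknown.

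Sectm1b read 8.63, 8.14 and 8.74 in Gli1-/- mice 1 to 3, against 6.77, 6.75 and 6.40 in wild-type mice 1 to 3. The lowest Gli1-/- mouse stood 1.38 log2 units above the highest wild-type mouse. The group means were 8.50 ± 0.32 in Gli1-/- and 6.64 ± 0.20 in wild-type mice (SD, n = 3 each), a log2 difference of 1.86 (SE 0.18) or 3.64-fold. Calls at a Benjamini-Hochberg adjusted p under 0.05 in limma made up 0.0197% of all genes tested, and Sectm1b was picked from them. These are whole-lobe samples, in which more cells of a type and more RNA per cell cannot be told apart.

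Sectm1a was also higher in every Gli1-/- mouse than in any wild-type mouse. It read 9.19, 9.16 and 9.27 in Gli1-/- mice 1 to 3, against 7.31, 7.77 and 8.39 in wild-type mice 1 to 3. The mutants lay close together, within 0.11 log2 units, while the wild-type mice spread over 1.09. The means were 9.21 ± 0.06 in Gli1-/- and 7.82 ± 0.54 in wild-type mice (SD, n = 3 each), which is 2.61-fold. The log2 difference was 1.38 (SE 0.24, 95% interval 0.82 to 1.95), and it did not pass (limma adjusted p = 0.125). Groups with all 3 Gli1-/- mice above all 3 wild-type mice were found for 8.34% of genes, and log2 differences above 1 for 0.494%.

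Cd7, the receptor gene, differed least of the 3. It read 7.38, 7.63 and 7.18 in Gli1-/- mice 1 to 3, against 7.05, 7.14 and 6.96 in wild-type mice 1 to 3. The groups did not overlap, but Gli1-/- mouse 3 stood just 0.038 log2 units above wild-type mouse 2. Means were 7.40 ± 0.22 in Gli1-/- and 7.05 ± 0.09 in wild-type mice (SD, n = 3 each). The log2 difference was 0.35 (SE 0.13, 95% interval 0.04 to 0.65), or 1.27-fold, and it did not pass (limma adjusted p = 0.426). Gli1-/- mouse 2 contributed most to it, and without that mouse the difference was 0.23 (adjusted p = 0.474).

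**Figure D1:**
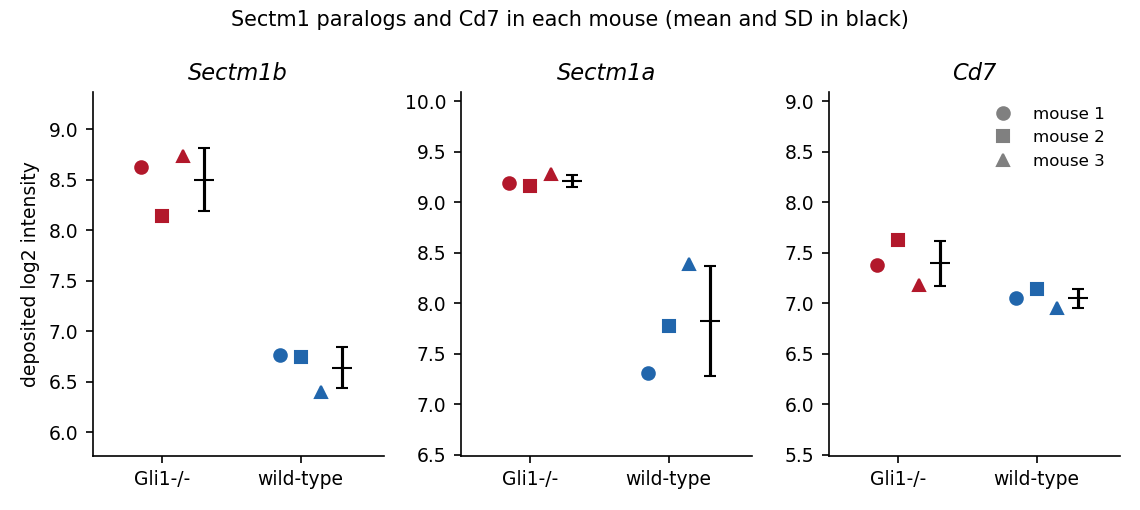
Deposited log2 intensity of Sectm1b, Sectm1a and Cd7 in each mouse, with Gli1-/- mice in red and wild-type mice in blue, the symbol giving the mouse number, and the mean and SD of 3 mice in black. All panels have the same height in log2 units: the 2 genotypes are widest apart for Sectm1b, the wild-type mice spread most for Sectm1a, and the groups nearly touch for Cd7.

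The mutants ordered alike in both paralogs, with mouse 3 highest and mouse 2 lowest, and the wild-type mice did not. For Sectm1a the order of the mutants rests on a range of just 0.11 log2 units, against 0.59 for Sectm1b. Wild-type mouse 3 had the lowest Sectm1b value of the 6 mice and the highest Sectm1a value among wild-type mice. Sectm1a and Sectm1b are related in sequence and the probe sequences of the array were not used here, so how far each probe set reads the other paralog is unknown.

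No other measured gene around the locus differed to the extent of the Sectm1 paralogs. Of the 11 other genes annotated inside the locus or among the 5 nearest on either side, 5 had a probe set. In limma 0 of these 5 passed in either direction and 0 had an unadjusted p under 0.05, against 10.5% of all genes. The lactate transporter gene Slc16a3 differed by 0.12 (SE 0.13) and the casein kinase gene Csnk1d by 0.07 (SE 0.10). On the other side Tex19.2 and Tex19.1, a pair of paralogs active in the germ line, differed by 0.07 (SE 0.11) and 0.05 (SE 0.09), and the urotensin receptor gene Uts2r by 0.29 (SE 0.15). Within 300 kb of the middle of Sectm1b, 16 other genes were measured, with differences from -0.28 to 0.29 and a median of 0.06. In 1 of the 16 all Gli1-/- mice were above all wild-type mice and in 1 all were below, against 8.34% and 6.01% of all genes.

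**Figure D2:**
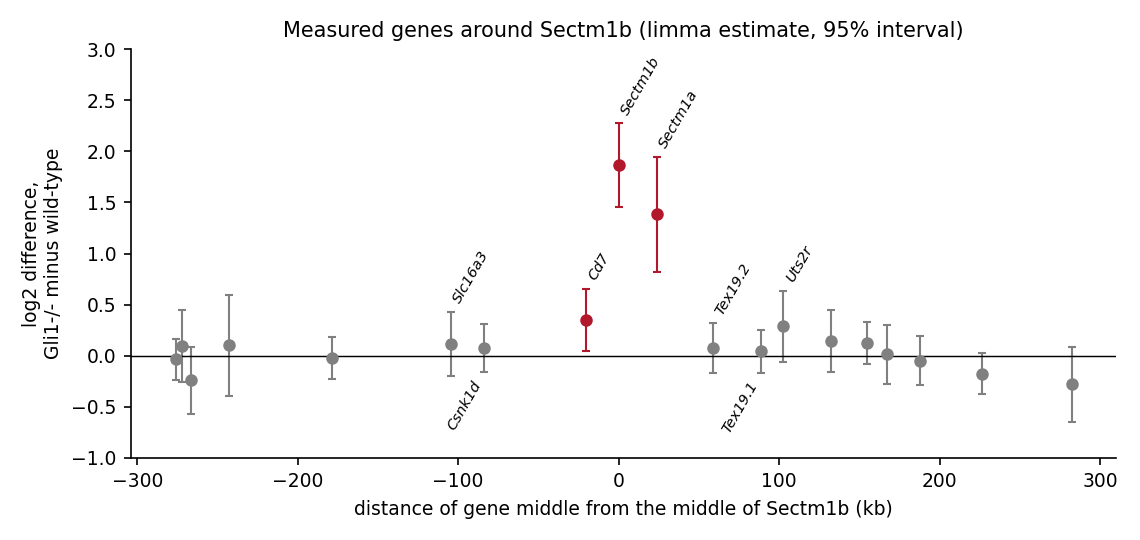
Log2 difference (Gli1-/- minus wild-type, limma estimate with 95% interval) of the measured genes within 300 kb, by the distance of their middle from the middle of Sectm1b in kb. Sectm1b and Sectm1a stand at 1.86 and 1.38, Cd7 at 0.35, and the 16 other genes (grey) lie between -0.28 and 0.29.

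Further partners of this ligand and receptor pair differed by at most 0.30 log2 units in either direction. Tnfrsf18, which encodes Gitr, read 6.58, 7.03 and 6.70 in Gli1-/- mice, against 6.81, 7.03 and 6.94 in wild-type mice, a difference of -0.16 (SE 0.14, limma adjusted p = 0.741). Tnfsf18, the gene of the classical Gitr ligand, differed by 0.16 (SE 0.11, adjusted p = 0.648). Lgals1 encodes galectin-1, a lectin that binds CD7 on human T cells, and it differed by 0.30 (SE 0.22, adjusted p = 0.701). In all 3 genes the genotypes overlapped, while 8.34% of all genes had all Gli1-/- mice above and 6.01% all below. Of the 3, 0 had an unadjusted p under 0.05, against 10.5% of all genes.

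Other ligands that act on T and NK cells were compared from a list of 26 measured genes, and 0 of them passed limma's adjusted threshold in either direction. An unadjusted p under 0.05 was found for 9 of them, and for 10.5% of all genes. Their median log2 difference was 0.18, against -0.005 over all genes, and 20 were positive, against 48.5% of all genes. In 10 of the 26 all Gli1-/- mice lay above all wild-type mice and in 1 below, where 8.34% and 6.01% of all genes did so. This list and those below were chosen with earlier results of these data known, so their counts are a description. Vtcn1, a B7-family gene whose product restrains T cells, read 10.5, 9.83 and 10.4 in Gli1-/- mice 1 to 3, against 8.46, 8.96 and 8.64 in wild-type mice 1 to 3, a 2.91-fold difference (limma adjusted p = 0.0882). Its relatives Cd276 and Vsir differed by 0.56 (SE 0.11) and 0.42 (SE 0.12). Lgals9, which encodes the lectin galectin-9, differed by 0.88 (SE 0.21). The interferon-inducible B7 gene Cd274, which encodes PD-L1, differed by -0.08 (SE 0.16).

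The matching receptors lay closer to 0. Of 24 measured costimulatory and checkpoint receptor genes 0 passed in limma and 0 had an unadjusted p under 0.05, against 10.5% of all genes. Their log2 differences ran from -0.17 to 0.18, and the median was 0.05. In none of the 24 were the genotypes fully apart, while 8.34% of all genes had all Gli1-/- mice above and 6.01% all below. Cd96 (0.17, SE 0.11), Havcr2 (0.18, SE 0.12) and Klrk1 (0.18, SE 0.12) had the smallest unadjusted p beside Tnfrsf18. The difference of 0.35 for Cd7 was larger than that of each receptor on this list, and the difference between Cd7 and the list was not tested. The list was dim, with a mean level of 5.57 to 5.69 in Gli1-/- and 5.43 to 5.70 in wild-type mice. Sample medians were 6.76 to 6.95, and Cd7 had means of 7.40 and 7.05. RMA compresses differences near background, and its part in the small receptor differences was not tested.

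**Figure D3:**
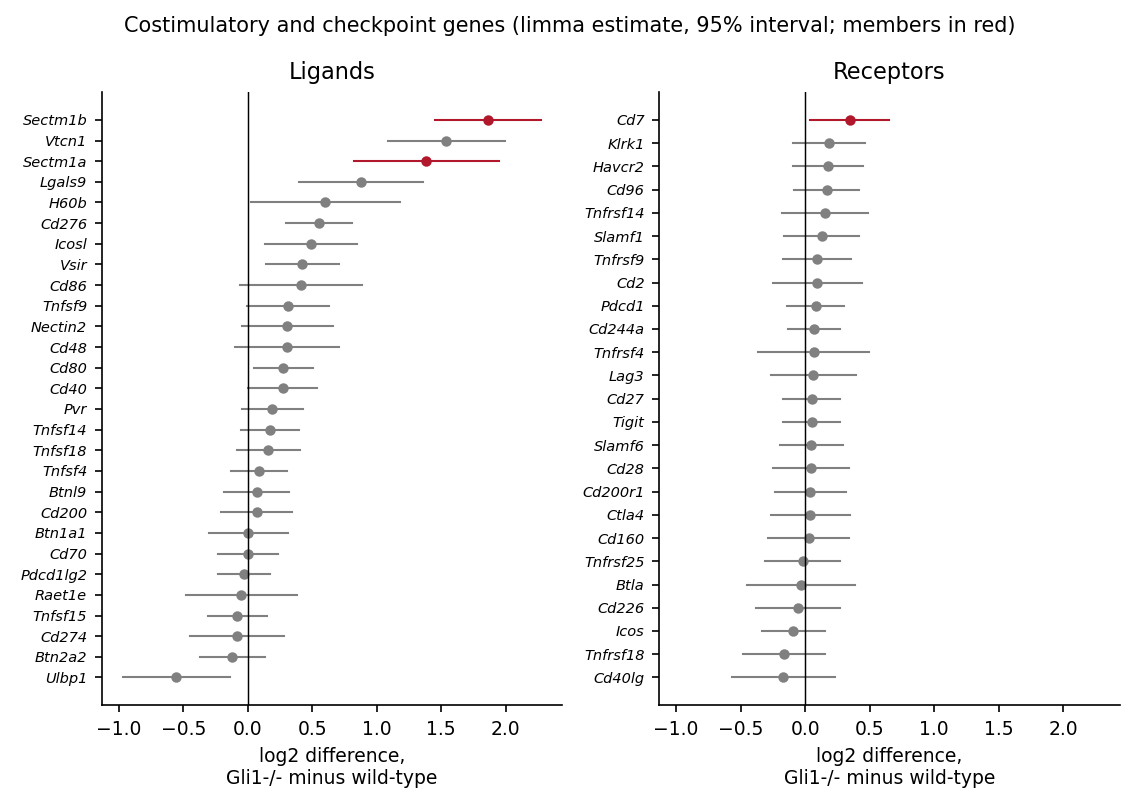
Log2 difference (Gli1-/- minus wild-type, limma estimate with 95% interval) of costimulatory and checkpoint ligand genes (left) and receptor genes (right), each panel sorted by size. Sectm1b, Sectm1a and Cd7 are in red: Vtcn1 stands between the Sectm1 paralogs among the ligands, and the 24 listed receptors lie between -0.17 and 0.18, below Cd7.

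Genes of the cells that carry Cd7 were uneven. Of 35 T and NK cell markers 0 passed in limma, 5 had an unadjusted p under 0.05 and 24 were positive. Over all genes 10.5% had such a p and 48.5% were positive. The median log2 difference of the markers was 0.10, or 0.05 to 0.19 with single mice left out. Cd3g, a subunit gene of the T cell receptor complex, read 6.22, 7.26 and 6.85 in Gli1-/- mice 1 to 3, against 6.07, 6.16 and 5.76 in wild-type mice 1 to 3, a difference of 0.78 (SE 0.25, limma adjusted p = 0.336). Gli1-/- mouse 2 was the highest for Cd3g, as it was for Cd7. The sister subunits did not share that size, with Cd3e at 0.29 (SE 0.11) and Cd3d at -0.07 (SE 0.10). The NK receptor gene Ncr1 differed by -0.04 (SE 0.17), while the cytotoxic granule gene Gzmb differed by 0.74 (SE 0.17) and the interleukin receptor gene Il2rb by 0.41 (SE 0.12). The mean level of the T and NK list ran from 6.05 to 6.23 in Gli1-/- mice and from 5.87 to 6.08 in wild-type mice, so the genotypes overlapped in it. The part of lymphocyte number in the Cd7 values was not tested. B cell markers had a median of 0.06, with genes going both ways. Of the 13, 0 passed in limma and 3 had an unadjusted p under 0.05, against 10.5% of all genes. These were Jchain at -0.77 (SE 0.17), Ms4a1 at 0.44 (SE 0.14) and Mzb1 at 0.27 (SE 0.09).

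Interferon-response genes were higher on average, though 0 passed in limma. An unadjusted p under 0.05 was found for 14 of 34 gamma-response and 12 of 25 type I genes, against 10.5% of all genes. Of 34 interferon-gamma response genes 32 were positive, against 48.5% of all genes. Their median log2 difference was 0.47, or 0.26 without Gli1-/- mouse 2. In 16 of them all Gli1-/- mice lay above all wild-type mice and in 1 below, against 8.34% and 6.01% of all genes. The tryptophan-degrading enzyme gene Ido1 read 5.72, 5.83 and 5.83 in Gli1-/- mice 1 to 3, against 4.96, 5.11 and 5.25 in wild-type mice 1 to 3 (difference 0.69, SE 0.11, limma adjusted p = 0.101). The genotypes did not overlap in it. The MHC class II gene H2-Eb1 differed by 1.26 (SE 0.28) and Irf1 by 0.25 (SE 0.12). Centred on each gene's mean, the list's median stood at -0.04, 0.44 and 0.15 in Gli1-/- mice 1 to 3, while Sectm1b was lowest in Gli1-/- mouse 2. In wild-type mice 1 to 3 the list's median stood at -0.24, -0.08 and -0.22. The part of an interferon response in the Sectm1 values was not tested.

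The 25 type I interferon response genes had a median of 0.42, with 22 positive (48.5% of all genes were) and 0 passing. Without Gli1-/- mouse 3 the median was 0.27. Centred on each gene's mean, the list's median stood at -0.12, 0.08 and 0.52 in Gli1-/- mice 1 to 3, against -0.10, -0.20 and -0.31 in wild-type mice 1 to 3. Stat2 differed by 0.62 (SE 0.17), Parp14 by 0.51 (SE 0.16) and the antiviral gene Oasl1 by 0.48 (SE 0.16). Ifng, the gene of interferon-gamma, read 5.84, 5.69 and 5.74 in Gli1-/- mice and 5.55, 5.47 and 5.74 in wild-type mice, which overlapped (difference 0.17, SE 0.11). Over the 16 measured interferons, receptors and kinases the median was 0.18 and 0 passed in limma. Of the 16, 2 had an unadjusted p under 0.05, against 10.5% of all genes. Jak2 differed by 0.32 (SE 0.11) and Il10rb by 0.41 (SE 0.16).

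Markers of other cell types differed alongside the Sectm1 paralogs, with the highest median in those of the proximal and progenitor-like epithelium. In 13 of the 14 genes on that list all Gli1-/- mice lay above all wild-type mice, and in the remaining one, Prom1, all lay below, against 8.34% and 6.01% of all genes. Their median log2 difference was 1.17, although 0 passed in limma over all genes. Of the list 14 had an unadjusted p under 0.05, against 10.5% of all genes. Since the list was chosen with earlier results of these data known, its counts are a description. The mean level of the list was 10.4, 10.2 and 9.93 in Gli1-/- mice 1 to 3, against 9.28, 9.17 and 8.75 in wild-type mice 1 to 3. Psca and Ly6a, surface antigen genes of progenitor-like cells, differed by 1.52 (SE 0.25) and 0.92 (SE 0.17), and the mucin gene Muc1 by 0.80 (SE 0.11). Wild-type mouse 3 was lowest both in this list and in Sectm1b, but it was the highest wild-type mouse for Sectm1a. The part of these cells in the Sectm1 values was not tested.

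Macrophage markers were higher as well, with 23 of 25 positive (48.5% of all genes were) and a median of 0.57. The scavenger receptor gene Msr1 differed by 1.09 (SE 0.16) and the macrophage marker Adgre1 by 0.75 (SE 0.16). Of the list 0 passed in limma and 18 had an unadjusted p under 0.05, against 10.5% of all genes. The list's mean level ran from 8.11 to 8.61 in Gli1-/- mice and from 7.65 to 8.03 in wild-type mice, again with Gli1-/- mouse 2 the highest. Neutrophil markers had a median of 0.12, within which Lcn2 and Ltf, genes that epithelial cells also express, differed by 2.38 (SE 0.36) and 2.39 (SE 0.53). Ltf also had the largest difference on the proximal and progenitor-like list. Csf3r, a receptor gene of neutrophils, differed by 0.20 (SE 0.12), and the protease gene Mmp9 by -0.33 (SE 0.16). Dendritic cell markers had a median of 0.17. The integrin gene Itgax differed by 0.67 (SE 0.20) there, and Cd74 (0.92, SE 0.22), H2-Ab1 (0.88, SE 0.40) and Irf8 (0.36, SE 0.14) are also on the interferon-gamma list.

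Lower in the mutants were the 20 prostate luminal secretory genes, with a median of -0.44 (-0.23 without Gli1-/- mouse 3 and -0.16 without wild-type mouse 3), and the 12 smooth muscle genes, with a median of -0.53. Spink11, a protease inhibitor gene of the secretory list, passed in limma, and 0 others of both lists did. Of the secretory genes 10 and of the smooth muscle genes 8 had an unadjusted p under 0.05, against 10.5% of all genes. Basal epithelial, fibroblast, endothelial and urothelial markers had medians of 0.34, 0.33, 0.18 and 0.15, with 0 passing in limma. Of their 13, 12, 12 and 12 measured genes, 5, 5, 4 and 3 had an unadjusted p under 0.05, against 10.5% of all genes. The 14 Hedgehog pathway genes had a median of 0.02, with 8 positive (48.5% of all genes were). Hhip, a Hedgehog target and antagonist, differed by -0.69 (SE 0.25), and Ptch1 by 0.22 (SE 0.18). Hhip read 6.52, 7.34 and 7.59 in Gli1-/- mice 1 to 3, against 7.80, 7.88 and 7.85 in wild-type mice 1 to 3.

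**Figure D4:**
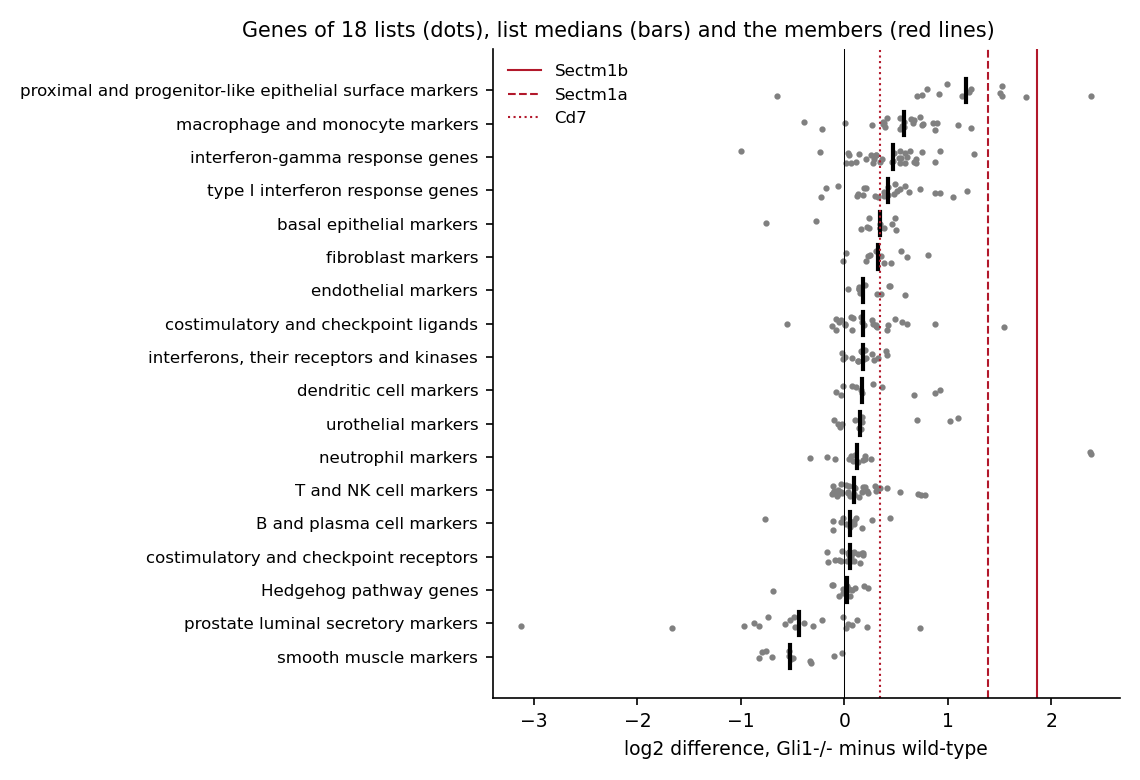
Log2 difference (Gli1-/- minus wild-type) of each gene of 18 lists (grey dots), with the list median as a black bar and the members as red lines (Sectm1b solid, Sectm1a dashed, Cd7 dotted). The proximal and progenitor-like epithelial list has the highest median, 1.17, still left of Sectm1a at 1.38 and Sectm1b at 1.86. Most of the T and NK markers lie left of Cd7.

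The genes most like Sectm1b were found by the root mean square difference between log2 profiles over the 6 mice, each gene centred on its own mean. This measure uses the same genotype difference that chose Sectm1b, so the likeness is a description. The nearest of all named genes was Psca, at 0.22 log2 units, followed by Vtcn1 at 0.25, Clca1 at 0.30, with Atp10b, the fifth, at 0.39. The median over all other genes was 0.97. Clca1, which encodes a secreted protein that modulates chloride channels, read 7.84, 7.43 and 8.23 in Gli1-/- mice 1 to 3, against 6.39, 6.35 and 6.55 in wild-type mice 1 to 3. Mouse 2 was the lowest mutant in Psca, Vtcn1 and Clca1, as in Sectm1b, but not in Atp10b. Wild-type mouse 3 was the lowest of all mice in Psca and Atp10b, again as in Sectm1b. The paralog Sectm1a stood at 0.51, with 31 genes nearer to Sectm1b, and Cd7 at 0.82, with 1363 nearer.

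**Figure D5:**
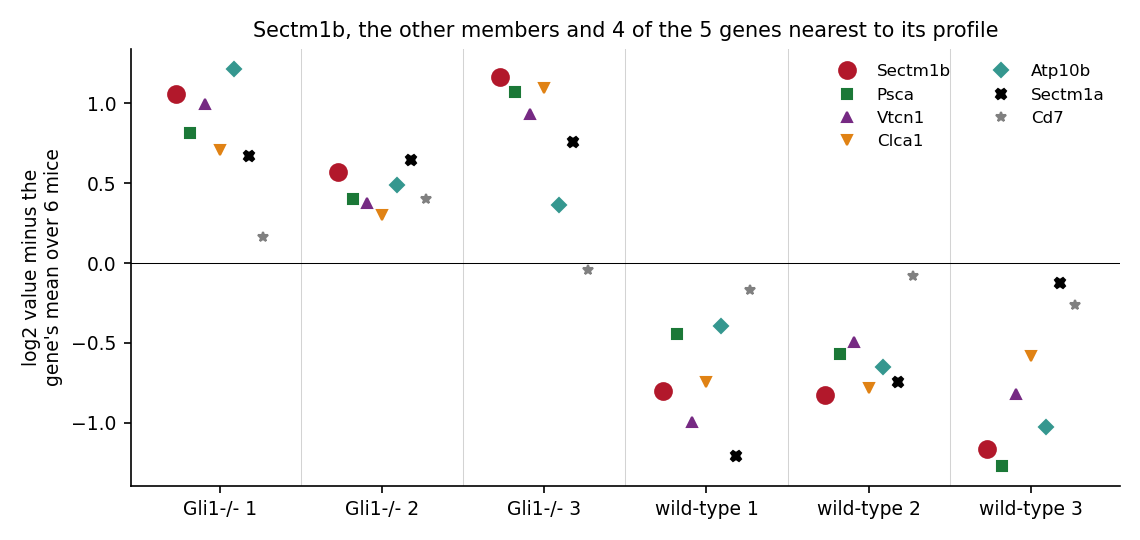
Log2 value minus the gene's mean over 6 mice for Sectm1b (large red circles), 4 of the 5 genes nearest to its profile, Sectm1a (black crosses) and Cd7 (grey stars), by mouse. Sectm1a lies apart from Sectm1b most in wild-type mouse 3, and Cd7 spans the narrowest range of the 7 genes.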

How the data were processed

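RNA of 6 prostates was labelled with biotin and hybridised to 1-colour arrays, per the labels' protocols. The table was deposited by the authors on a log2 scale, and its values were taken unchanged. RMA, which corrects background, normalizes between arrays and summarises probes, and Partek are tools listed by the submitters' processing notes with no further detail. RMA compresses differences near background. The array model, the probe sequences and the build behind them are not stated there.

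The table held 32025 probe sets named by RefSeq transcripts. Through a RefSeq gene table for GRCm38.p6, used for names and neighbours, 25343 (79.1%) matched 1 gene and 6682 none. Each of the 20263 genes was read from the probe set with the highest mean over the 6 samples. Gli1-/- minus wild-type was fitted over all genes by limma's lmFit and eBayes (limma 3.58.1, R 4.3.3), two-sided and without covariate or filter, with Benjamini-Hochberg adjustment and a threshold of 0.05. The procedure was tested on simulated data. Errors are SDs over 3 mice or SEs and 95% intervals from the fit, and the number of arrays limits their precision. Each sample was 1 mouse, so p-values set the group difference against the spread between mice, which eBayes moderates over all genes.

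The members, the 19 gene lists (334 genes, 324 measured) and the tests were chosen with earlier results of these data known. Lists are described by counts and medians, with no test. Named were the 3 members, Gli1, their partners, the neighbours, the 5 likest genes without predicted models, 9 lineage or interferon genes and, per list, up to 4 genes with the smallest unadjusted p. Some genes that this rule names are not reported here. Pbsn and Krt8 check the tissue. Cd274 was chosen after its value was seen. Alternatives were array weights, a robust fit with an intensity trend, median centring, quantile normalization, leaving out the dimmest 25% of genes, other handling of probe sets, the replicate block and leaving out each mouse.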

Additional observations from a re-analysis of the deposited data

How the results depend on the processing

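Sectm1b, Sectm1a and Cd7 kept their direction in all 14 alternatives. Sectm1b, whose call chose it, was not called with quantile normalization (difference 1.88), with every probe set fitted on its own (1.86), or with any mouse other than Gli1-/- mouse 2 left out, and its differences with each of the 6 mice left out were 1.75 to 2.04. Sectm1a differed by 1.13 to 1.67 with single mice left out (limma adjusted p from 0.101 to 0.289). It passed with array weights, at 1.46 (adjusted p = 0.00391), where the weights' estimation stopped before it converged and wild-type mouse 2 carried a weight of 7.22 against 0.36 and 0.35 for its group. Cd7 passed in none, with differences from 0.23 to 0.46 when single mice were left out and 0.17 with array weights. The number of genes called was 4680 with array weights, 9 with median centring, 8 without dim genes, 25 with the replicate block, and 3 to 17 with single mice left out, against 4 as reported. Of the extremes, 17 came without Gli1-/- mouse 2, and 7 genes were called without wild-type mouse 2. With the replicate block Sectm1a had a limma adjusted p of 0.0758 and Cd7 one of 0.269. Deviations of same-numbered mice from their group means correlated over all genes at 0.16, 0.25 and -0.15 for numbers 1 to 3. For mice of different numbers the correlations ran from -0.32 to 0.25. With 3 mice per group these values cannot show whether the shared numbers pair the mice. Of 266 list medians under alternatives, 14 moved by more than the SD between mice and 4 changed sign. With array weights the interferon-gamma median was 0.22 and the macrophage median 0.34. Those that changed sign were the costimulatory receptor, B cell, neutrophil and Hedgehog medians, all within 0.12 of 0 as reported.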
